A study of Mus musculus with 57 samples.

Results

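The adult striatum of female C57BL/6J mice that had received testosterone at birth (XX+T) was compared with that of females that had received oil (XX). The arrays were chosen by their labels alone: tissue striatum, age 60 days, and treatment group XX+T (4 arrays, pools 3, 4, 5 and 6) or XX (5 arrays, pools 1 to 5), 9 arrays of the 57 in the series. Each array carried RNA from a pool of 3 animals. XX+T pups were injected with 100 µg of testosterone propionate in peanut oil on the day of birth and XX pups with the oil. All day 60 mice, in both groups, were gonadectomized at day 21 and carried a testosterone capsule from day 45, so the groups differed by label in the neonatal injection. Further arrays entered as comparisons: striata of XX and XX+T pups at day 4, with no surgery or capsule, the BNST/POA of both groups at day 60, and striata of XY males at day 60 (4 arrays), given oil at birth and then treated as the day 60 females. Every litter got a single treatment and cages held litter mates, so that treatment, litter and cage cannot be told apart here, and p-values measure the spread between pools.

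Testosterone of the newborn testis reaches the rodent brain in a short perinatal window, where it acts through the androgen receptor and, after conversion to estradiol by aromatase, through estrogen receptors, and leaves lasting differences in neural circuits. The striatum consists mostly of GABAergic projection neurons that express dopamine receptors and the phosphoprotein DARPP-32 (Ppp1r1b). It is less often studied than the preoptic area (POA) and the bed nucleus of the stria terminalis (BNST), where such organizational effects are best known. Expression was measured on Illumina bead arrays. A level below is a quantile-normalised log2 intensity, on which 1 unit is a doubling, and levels are compared only within a probe.

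The 9 arrays were not alike. Before normalization 11258 to 11931 probes were detected on the XX arrays, and 13895, 11537, 11930 and 13014 on XX+T pools 3, 4, 5 and 6 (group means 11684.6 and 12594, two-sided exact permutation p = 0.119 over 126 arrangements). Over all probes, pools 3 and 6 correlated with the XX arrays at a mean r of 0.914 and 0.960, and pools 4 and 5 at 0.986 each. The median absolute distance from the XX mean was 0.375 in pool 3, 0.142 in pool 4, 0.145 in pool 5 and 0.260 in pool 6, against 0.111 to 0.160 for an XX array set against the other XX arrays.

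Sex-linked transcripts gave a check of the labels. Eif2s3y, which is Y-linked, was at 8.30 and detected on XX+T pool 3, at 6.86 to 6.95 and not detected on pools 4, 5 and 6, and at 6.86 to 7.10 on the XX arrays. The XY striatal arrays lay between 8.73 and 9.24. Xist, the RNA of the inactive X chromosome, was not detected on pool 3 (7.12) and was detected on pools 4 (7.53), 5 (7.62) and 6 (9.47). On the XX arrays Xist was at 7.63 to 7.90, so that pool 6 lay above all of them and pools 4 and 5 just below. The array labelled XX+T pool 3, called pool 3 below, thus went against its label in both transcripts. Pool 6 did not, but over all probes it lay further from the XX arrays than pools 4 and 5. Most named differences are also given without pools 3 and 6.

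Markers of striatal projection neurons differed in level between the XX+T pools. Ppp1r1b was at 13.86, 14.04, 14.19, 14.22 and 13.99 in XX pools 1 to 5, and at 14.91, 13.38, 14.12 and 14.30 in XX+T pools 3 to 6. Pool 3 was above and pool 4 below all XX arrays. Of 20 markers in the list, 14 were measured and none was called in the comparison given below. Their summed level, a sum of normalised intensities on the linear scale as for all lists below, was 87600 to 101000 in XX and 165000, 68600, 102000 and 117000 in XX+T pools 3 to 6. Fewer cells of a type and less RNA per cell cannot be told apart in such pooled tissue.

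Peptide transcripts of hypothalamic neurons also differed between the pools. Pmch, the melanin-concentrating hormone precursor of the lateral hypothalamus, was at 9.08, 9.77, 9.99, 11.30 and 9.97 in XX and at 7.78, 13.50, 10.35 and 13.25 in XX+T pools 3 to 6. Hcrt, the orexin precursor of the same area, was at 7.19 to 7.70 in XX and at 7.16, 10.12, 7.35 and 9.86 in XX+T. Pools 4 and 6 held more of both transcripts than any XX array. The summed level of the 12 measured peptide markers was 5790 to 7440 in XX and 3330, 21500, 5580 and 15800 in XX+T pools 3 to 6. The choroid plexus transcript Ttr was at 14.76 in XX pool 5, 14.82 in XX+T pool 3 and 14.51 in XX+T pool 4, and at or below 12.59 on the other arrays. The part of tissue makeup in the differences below was not tested. Ppp1r1b and the summed lists are given as descriptions, chosen after their values were seen.

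**Figure D1:**
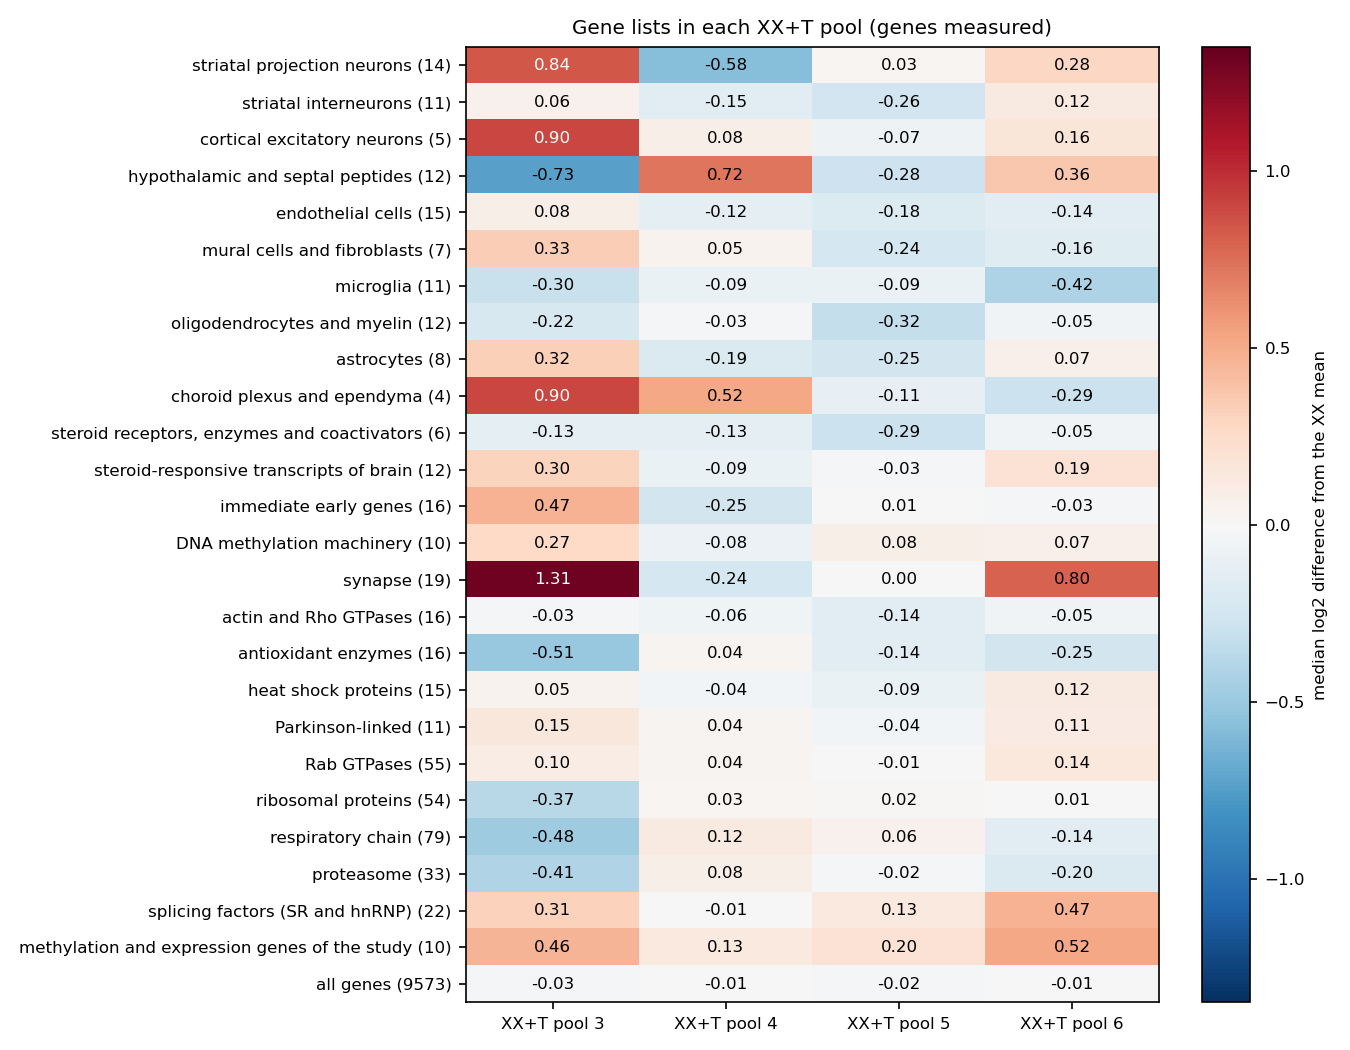
Median log2 difference from the XX mean over the measured genes of each list (rows, number of genes in parentheses) in each XX+T pool (columns); colour and printed number give the same value. The synapse list ran from 1.31 in pool 3 to -0.24 in pool 4 and the projection neuron list from 0.84 to -0.58. The median of all genes, which quantile normalization largely sets, was between -0.03 and -0.01.

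With all 9 arrays, and the day 4 arrays of the same groups sharing the estimate of the spread, 105 of 13731 probes were called at an adjusted p under 0.05 (0.765%, limma with Benjamini-Hochberg adjustment over all probes). Of these, 42 were higher in XX+T (0.306%) and 63 lower (0.459%), from 96 named genes. An unadjusted p under 0.05 was reached by 3593 probes, where 687 would be found by chance. The called differences were modest: their median size was 0.55 on the log2 scale, they ran from 0.31 to 1.31, and 8 were at least 1. The groups did not overlap in 77 of the 105 called probes, beside 406 of all 13731 (2.96%).

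The number of calls depended on single arrays. Without XX+T pool 3, 4 probes were called (0.0291%), 3 of them among the 105, and without pool 6 none was (smallest adjusted p 0.12, 2162 probes at an unadjusted p under 0.05). Without both, 5 were called (0.0364%), none of them among the 105. The 9 day 60 arrays fitted alone gave 0 calls (smallest adjusted p 0.431), with 1575 probes at an unadjusted p under 0.05. The median SE over all probes was 0.145 in that fit and 0.122 with the day 4 arrays included. The SEs given below are from the fits with day 4 unless stated. Leaving out XX+T pool 4 or 5 gave 4008 and 1575 calls. Without XX pool 1, 2, 4 or 5 the count was 3, 3, 0 and 318, and without XX pool 3 it was 98. Of the 105 calls 40% were higher in XX+T, against 62.9% of 35 calls after normexp background correction and 9.09% of 11 after median centring, which moved the median of all probes to 0.0825.

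**Figure D2:**
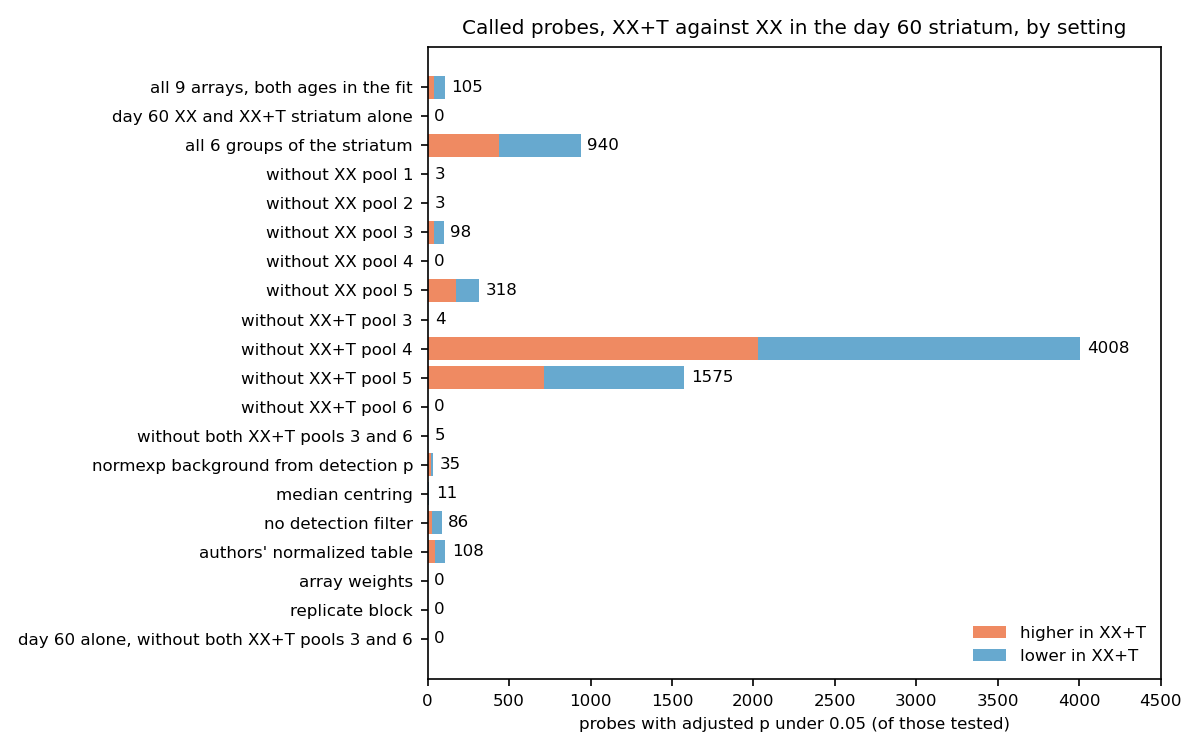
Number of called probes (x axis, linear) in the adult striatal comparison under each setting (rows), split into probes higher (orange) and lower (blue) in XX+T. The count was 105 with all arrays, 4008 without XX+T pool 4 and 0 without XX+T pool 6.

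All 105 probes kept their sign without pools 3 and 6, where the median difference was 0.39 for the 42 higher probes and -0.38 for the 63 lower ones, against 0.55 and -0.55 with all arrays. In the 77 whose groups do not overlap, the sign is fixed by the choice. Over the 105 probes the arrays of pools 3 and 6 lay beyond the XX range, on the called side, in 105 each, that of pool 4 in 82 and that of pool 5 in 100. Both pools 4 and 5 did so in 77. These arrays also took part in the call, so that the counts describe the calls and are no separate test of them. Over all probes, 72.5%, 39.1%, 40.3% and 62.4% lay outside the XX range in pools 3, 4, 5 and 6.

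**Figure D3:**
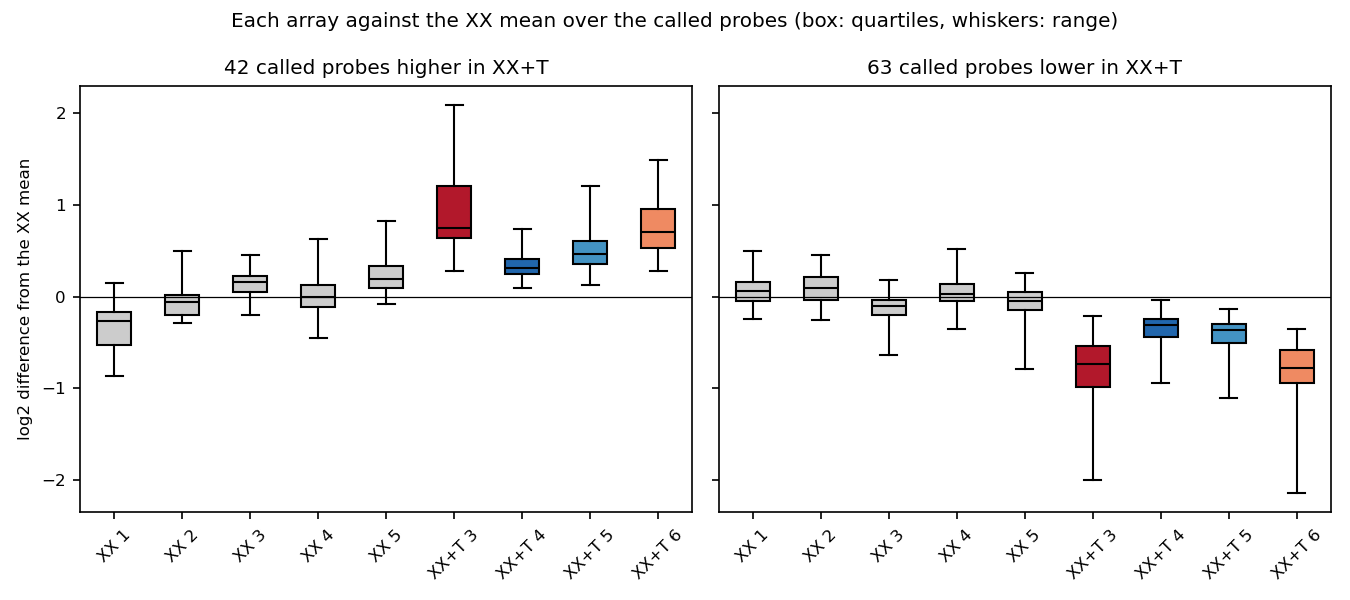
Log2 difference of each array from the XX mean (y axis) over the 42 called probes higher in XX+T (left) and the 63 lower (right); an XX array is set against the other XX arrays, boxes are quartiles and whiskers the full range. The medians of the higher probes were 0.75, 0.32, 0.46 and 0.71 in XX+T pools 3 to 6 and -0.27 to 0.19 in the XX arrays.

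The smallest adjusted p values belonged to Taldo1 and Txndc15, both lower in XX+T. Taldo1, transaldolase of the pentose phosphate pathway, was at 12.94, 12.95, 13.01, 13.10 and 13.02 in XX and at 12.53, 12.52, 12.57 and 12.37 in XX+T pools 3 to 6. No XX+T array reached the lowest XX array, and pools 3, 4 and 5 were close to each other. The level fell by 29.7% (log2 difference -0.51 ± 0.07 SE, adjusted p = 0.0147), and the difference was -0.46 ± 0.09 without pools 3 and 6 (adjusted p = 0.0805).

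Txndc15, a membrane protein with a thioredoxin domain, followed the same course. It was at 13.45, 13.56, 13.44, 13.55 and 13.49 in XX and at 13.11, 13.03, 13.07 and 12.91 in XX+T, again without overlap. It fell by 0.47 on the log2 scale (SE 0.07, adjusted p = 0.0147), and differed by -0.45 without pools 3 and 6 (adjusted p = 0.0693). Without pool 3 both genes remained called (Taldo1 adjusted p = 0.0233, Txndc15 adjusted p = 0.0231), and without pool 6 neither was (adjusted p = 0.12 for both).

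Of 16 measured antioxidant enzymes in the list, 4 were called and all 4 were lower, beside 0.606% of all genes. They include Taldo1, named above. This list and the others, above and below, were chosen with earlier results of these data known. Their counts of calls are therefore descriptions and no test of a list. Txn2, mitochondrial thioredoxin, fell by 0.70 (SE 0.12, adjusted p = 0.0301), with XX arrays at 10.32 to 10.67 and XX+T at 9.47, 10.07, 10.12 and 9.53. Cbr3, a carbonyl reductase, fell by 0.76 (SE 0.15, adjusted p = 0.0404) on its dimmer probe, while the brighter differed by -0.62 (adjusted p = 0.065), and the groups overlapped on both. Prdx1, a peroxiredoxin, was called on a dim probe that was not detected on any XX+T array and was at least 1.20-fold higher in XX (adjusted p = 0.0402). Its bright probe, at 13.87 to 14.20 in XX and 13.38 to 14.05 in XX+T, was not called (-0.29, adjusted p = 0.154), so that the Prdx1 probes fall on different sides of the threshold. A fold written as "at least" takes the dimmer group at its own signal or at the lowest signal among detected probes of each array, whichever is higher. Without pools 3 and 6 none of the 4 was called, and the called probes of Txn2, Cbr3 and Prdx1 differed by -0.41, -0.48 and -0.39 (adjusted p = 0.17, 0.248 and 0.2). The list median was -0.23 with all arrays and -0.05 without pools 3 and 6. The median over 9573 genes, which quantile normalization largely sets, was 0.00 and -0.02.

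The Taldo1 promoter is shown with its CpG dinucleotides in capitals, since DNA methylation at CpG was the other readout of the study. It lies in RefSeq's GRCm38.p6 window of 300 bases at chr7:141391910-141392209, plus strand, and holds 22 CpG.
Taldo1: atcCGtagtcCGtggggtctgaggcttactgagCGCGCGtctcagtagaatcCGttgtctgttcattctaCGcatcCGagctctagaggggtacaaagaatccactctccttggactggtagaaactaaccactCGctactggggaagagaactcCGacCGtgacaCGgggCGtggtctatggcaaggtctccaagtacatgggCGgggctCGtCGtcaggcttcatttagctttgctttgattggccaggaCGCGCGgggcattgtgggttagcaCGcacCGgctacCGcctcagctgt
Its observed over expected CpG ratio was 0.92. The median of that ratio was 0.787 over the 27 higher genes with a promoter in the table, 0.767 over the 52 lower genes and 0.754 over 7786 measured genes, given as a description.

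Exosc5, a subunit of the RNA exosome, was at 10.63, 10.86, 10.50, 10.51 and 10.43 in XX and at 8.58, 10.07, 9.83 and 9.06 in XX+T. All XX+T arrays lay below all XX arrays, those of pools 3 and 6 the most. The difference was -1.20 ± 0.21 (adjusted p = 0.0301), -0.93 without pool 3 (adjusted p = 0.0412) and -0.64 without pools 3 and 6 (adjusted p = 0.0603). The cause of the smaller difference without those pools was not tested. Slc25a38, the mitochondrial glycine carrier used in haem synthesis, fell by 0.85 (SE 0.17, adjusted p = 0.0402), and 2 of its 3 probes were called. Mlycd, malonyl-CoA decarboxylase, fell by 0.75 (SE 0.16, adjusted p = 0.0446). Without pools 3 and 6 Slc25a38 and Mlycd differed by -0.45 and -0.43 and were no longer called (adjusted p = 0.2 and 0.282).

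Among the other lower genes without overlap were Cdyl (-0.93), a chromodomain corepressor, Hdhd5 (-0.95), Tusc2 (-0.84), Tmem121 (-0.83) and Pheta1 (-0.75), an endosomal adaptor, with adjusted p between 0.0301 and 0.0481. Pheta1 alone of these was as low without pools 3 and 6 (-0.78, adjusted p = 0.0887) as with them, whereas Cdyl, Hdhd5, Tusc2 and Tmem121 were at -0.61, -0.45, -0.42 and -0.29, and none of the 5 was called. None of the 79 respiratory chain genes was called. Their median was -0.11 with all arrays, 0.09 without pools 3 and 6, and -0.48 in pool 3 alone.

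At the blood-brain barrier, Cldn5 and Slco1c1 were lower in XX+T. Cldn5, claudin-5 of endothelial tight junctions, was at 12.02, 11.72, 11.69, 12.18 and 12.03 in XX and at 10.52, 11.07, 11.44 and 10.41 in XX+T. The groups did not overlap, and XX+T was lower by 1.07 ± 0.21 (SE; log2 difference -1.07, adjusted p = 0.0402), or -0.68 without pools 3 and 6 (adjusted p = 0.210). Slco1c1, the endothelial thyroxine and organic anion transporter, was at 10.65, 10.74, 10.50, 10.54 and 10.39 in XX and at 10.18, 9.86, 9.74 and 10.01 in XX+T. Here pools 4 and 5 lay furthest from XX. The difference was -0.61 ± 0.12 (adjusted p = 0.0402) and -0.76 without pools 3 and 6 (adjusted p = 0.0603).

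These were the 2 called genes among 15 measured endothelial markers, both lower, beside 0.606% of all genes called lower. The list median was -0.06, and 0.08, -0.12, -0.18 and -0.14 in XX+T pools 3 to 6 taken singly. Its summed level, in which the brightest genes weigh most, was 22100 to 23500 in XX. In XX+T pools 3 to 6 the sum was 17700, 19400, 20500 and 15200, below XX in every pool, although the list median of pool 3 was not below 0. The sum includes Cldn5 and is not separate from its call. Of the 15 markers, 10 had a negative and 5 a positive difference. Flt1, a VEGF receptor of the same list named after its values were seen, was at 8.55 to 9.61 in XX and at 11.13, 8.32, 8.37 and 10.14 in XX+T (adjusted p = 0.477), high in pools 3 and 6, where Cldn5 was low. The part of the endothelial share in the Cldn5 difference was not tested. The largest difference among the called probes, named after its value was seen, was that of Ccn2, a secreted matricellular protein, at -1.31 (adjusted p = 0.0424), and -0.70 without pools 3 and 6 (adjusted p = 0.265). Its groups overlapped, with XX at 11.86 to 12.91 and XX+T at 10.80, 11.64, 11.94 and 10.35.

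The Cldn5 promoter window, with CpG in capitals, lies at chr16:18776597-18776896 on the plus strand of GRCm38.p6 (RefSeq) and holds 12 CpG at an observed over expected ratio of 0.48.
Cldn5: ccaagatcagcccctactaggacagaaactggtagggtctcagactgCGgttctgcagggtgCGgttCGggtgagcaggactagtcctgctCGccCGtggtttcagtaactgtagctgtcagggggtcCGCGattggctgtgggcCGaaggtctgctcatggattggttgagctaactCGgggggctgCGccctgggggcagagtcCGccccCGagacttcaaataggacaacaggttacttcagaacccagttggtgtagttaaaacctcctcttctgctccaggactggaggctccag

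Of 12 measured transcripts known to respond to steroids in brain, 2 were called, both higher, beside 0.397% of all genes. Sgk1, a serine/threonine kinase induced by glucocorticoids, was at 12.77, 12.87, 12.89, 12.41 and 12.65 in XX and at 13.59, 13.42, 13.01 and 13.59 in XX+T. Every XX+T array was above every XX array, pool 5 by the least. The difference was 0.68 ± 0.14 (adjusted p = 0.0408) and 0.50 without pools 3 and 6 (adjusted p = 0.228).

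Tsc22d3, the glucocorticoid-induced leucine zipper, was called on 1 of its probes, at 7.51, 8.29, 7.73, 7.85 and 8.09 in XX and 8.33, 8.40, 8.42 and 8.44 in XX+T. The XX+T arrays were nearly equal and just above the highest XX array (0.50 ± 0.11, adjusted p = 0.0481). The brighter probe, at 11.70 to 12.04 in XX and 11.58 to 12.58 in XX+T, was not called (0.24, adjusted p = 0.296). Fkbp5, another glucocorticoid-induced gene, was at 7.47 to 7.83 in XX and at 8.90, 7.46, 7.64 and 8.25 in XX+T (0.43, adjusted p = 0.211), high in pools 3 and 6 alone. The list median was 0.13 with all arrays and -0.08 without those pools. None of the 6 measured steroid receptors, enzymes and coactivators was called.

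The first of 6 Sgk1 promoter windows in RefSeq's table is at chr10:21881934-21882233 on the plus strand of GRCm38.p6. It is shown with TGTTCT in capitals, the 6-base half-site that glucocorticoid and androgen receptors recognise.
Sgk1: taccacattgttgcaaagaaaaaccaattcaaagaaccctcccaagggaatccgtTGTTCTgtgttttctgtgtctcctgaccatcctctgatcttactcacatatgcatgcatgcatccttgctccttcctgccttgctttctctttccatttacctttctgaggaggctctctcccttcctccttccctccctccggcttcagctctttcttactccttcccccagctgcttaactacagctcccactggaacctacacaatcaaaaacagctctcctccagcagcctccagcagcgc
TGTTCT or its reverse complement AGAACA stood in the first window of 7 of 27 higher genes (25.9%), 10 of 52 lower genes (19.2%), 12.5% of 7786 measured genes and 19.0% of 27025 genes with a promoter. Such a match is a description of the letters and not a binding site.

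Gadd45b, which responds to activity and takes part in DNA demethylation, was at 9.05, 9.15, 8.71, 8.77 and 9.01 in XX and at 8.16, 8.40, 8.64 and 8.12 in XX+T. It fell by 0.61 (SE 0.11, adjusted p = 0.0301), without overlap, and differed by -0.42 without pools 3 and 6 (adjusted p = 0.199). It was the only called gene among 16 measured immediate early genes and among 10 genes of the DNA methylation machinery, beside 1.00% of all genes. Egr2, of the same immediate early list, was at 8.31 to 9.12 in XX and at 10.30, 8.20, 9.30 and 9.71 in XX+T (adjusted p = 0.116).

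**Figure D4:**
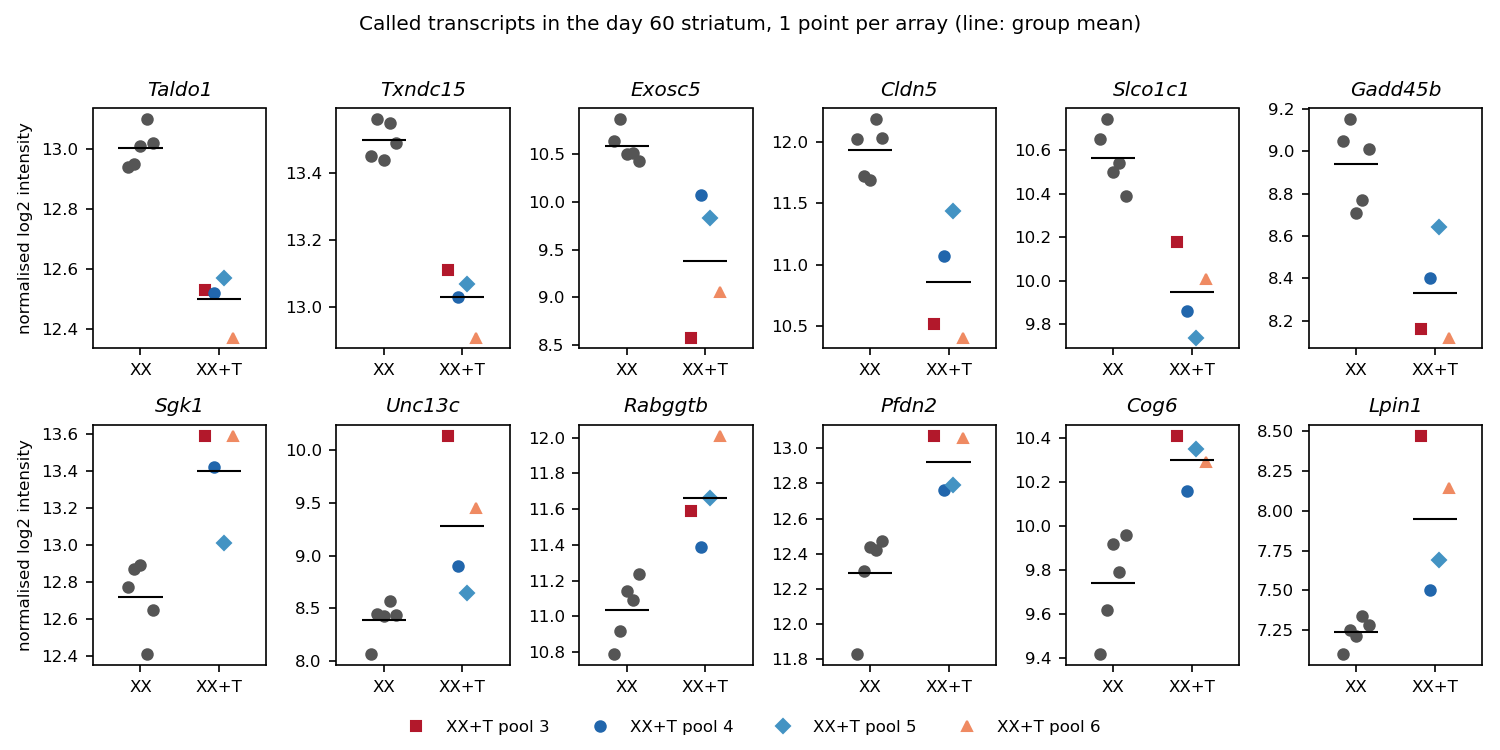
Normalised log2 intensity (y axis, scaled per gene) of 12 called transcripts on each day 60 striatal array; grey points are the XX arrays, coloured symbols the XX+T pools and lines the group means. Taldo1 and Txndc15 separated the groups evenly, with XX+T at 12.37 to 12.57 and 12.91 to 13.11, while in Unc13c pools 3 (10.13) and 6 (9.45) stood above pools 4 and 5.

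Of 19 measured synaptic genes 3 were called, all higher in XX+T, beside 0.397% of all genes called higher, and none was called without pools 3 and 6. Unc13c, a vesicle priming protein, was at 8.07, 8.45, 8.43, 8.57 and 8.44 in XX and at 10.13, 8.90, 8.65 and 9.45 in XX+T. Pools 4 and 5 lay just above the XX arrays and pools 3 and 6 well above. The difference was 0.89 ± 0.20 (adjusted p = 0.0481), and 0.39 without pools 3 and 6 (adjusted p = 0.243). The median of the list was 0.45 with all arrays and -0.16 without pools 3 and 6, and its summed level was 42000 to 51400 in XX and 115000, 41400, 50100 and 76700 in XX+T pools 3 to 6. Syt1, the calcium sensor of vesicle release, was at 11.11 to 11.44 in XX and at 13.39, 11.02, 11.36 and 12.64 in XX+T (adjusted p = 0.134). The part of the neuronal share of each pool in the synaptic differences was not tested.

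Cog6, a subunit of the Golgi tethering complex COG, was at 9.42, 9.62, 9.92, 9.79 and 9.96 in XX and at 10.41, 10.16, 10.35 and 10.29 in XX+T. It rose by 0.56 (SE 0.09, adjusted p = 0.0301), both of its probes were called, and without pools 3 and 6 it was at 0.51 (adjusted p = 0.123). Rabggtb, the catalytic subunit of the enzyme that prenylates Rab proteins, rose by 0.63 (SE 0.13, adjusted p = 0.0424), and differed by 0.49 without pools 3 and 6 (adjusted p = 0.205). Of 55 Rab GTPases (1.82%, beside 1.00% of all genes), Rab1b alone was called and was lower (-0.39, adjusted p = 0.0446) on 1 of its probes (-0.26 without pools 3 and 6, adjusted p = 0.27), while its brightest probe differed by 0.00 (adjusted p = 0.992).

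Further rises without overlap were those of Pfdn2 (0.63), a prefoldin subunit, Tsr2 (0.54), a ribosome biogenesis factor, Kcmf1 (0.48), a ubiquitin ligase detected on only 2 XX arrays, and Tmem167b (0.48), with adjusted p between 0.0424 and 0.0481. Without pools 3 and 6 they were at 0.48, 0.42, 0.24 and 0.26, and none was called. None of 54 ribosomal protein genes, 33 proteasome genes or 22 splicing factors was called. The same held for the 15 heat shock proteins, 7 mural cell genes, 11 interneuron genes, 5 cortical neuron genes and 4 choroid plexus genes, with list medians of 0.08, 0.01, 0.00, 0.17 and 0.27.

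Of 16 measured regulators of the actin cytoskeleton, 4 were called lower and 1 higher, beside 0.606% and 0.397% of all genes. Coro1a, an actin-binding coronin of leukocytes and microglia that neurons also express, fell by 0.68 (SE 0.14, adjusted p = 0.0424). Its XX arrays were at 12.14 to 12.48, its XX+T arrays were at 11.42, 11.90, 11.83 and 11.40, and 3 of its 4 probes were called. Coro1b fell by 0.62 (adjusted p = 0.0481), with overlap of XX pool 3 (11.09), and the small GTPases Mras and Rhod by 0.42 and 0.53 (adjusted p = 0.0481 each). Rac1, the GTPase that drives lamellipodia and spine growth, rose by 0.77 (SE 0.17, adjusted p = 0.0481), with overlap of pool 4 (8.90) and the XX arrays (8.20 to 8.92). Without pools 3 and 6 none of the 5 was called: Coro1a, Coro1b, Mras and Rhod differed by -0.45, -0.42, -0.33 and -0.29 (adjusted p = 0.254, 0.295, 0.182 and 0.324) and Rac1 by 0.41 (adjusted p = 0.297).

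Among glial markers, Fcrls of mouse microglia fell by 0.55 (SE 0.12, adjusted p = 0.0424), with XX at 9.55 to 9.90 and XX+T at 9.09, 9.24, 9.44 and 8.96, and differed by -0.39 without pools 3 and 6 (adjusted p = 0.251). It was the single call among 11 microglial markers (9.09%, beside 1.00% of all genes). Of these, 8 had a negative and 3 a positive difference (median -0.21, and -0.10 without pools 3 and 6). Laptm5, of the same list, was at 9.91 to 11.05 in XX and at 12.46, 9.55, 9.99 and 11.89 in XX+T (adjusted p = 0.457). The summed level of the list was 13300 to 14900 in XX and 15700, 12700, 14300 and 12900 in XX+T pools 3 to 6. The 12 oligodendrocyte and myelin genes, of which 1 was called and lower (8.33%), had a median of -0.15 and the 8 astrocyte genes, with no call, of -0.03.

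The study named 10 genes for which both methylation and expression differed in this comparison. All 10 were called here, 7 higher and 3 lower. They were chosen by the study on these samples, so this is not independent evidence of their direction. Ppp2r5c, a regulatory subunit of phosphatase PP2A, was at 9.25, 9.67, 9.82, 9.32 and 10.34 in XX and at 11.25, 9.96, 10.68 and 11.10 in XX+T on the called probe (1.07 ± 0.22, adjusted p = 0.0402), and its brighter probe was not called (0.32, adjusted p = 0.136).

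Lpin1, a phosphatidate phosphatase, was not detected on any XX array (7.10 to 7.34) and was at 8.47, 7.50, 7.69 and 8.14 in XX+T, at least 1.42-fold higher (adjusted p = 0.0402). Bin1, amphiphysin 2, was likewise not detected in XX on the called probe and at least 1.17-fold higher in XX+T (adjusted p = 0.0446), while its bright probe differed by 0.08 (adjusted p = 0.721). Egln1, the oxygen-sensing prolyl hydroxylase, Inpp5a, an inositol phosphatase, and Fhl1, a LIM domain protein, rose by 0.53, 0.42 and 0.40 (adjusted p = 0.0471, 0.0499 and 0.0364), Egln1 on a probe that is not its brightest (0.52, adjusted p = 0.0535). Wfdc1 fell by 0.66 and Vstm4 by 0.61 (adjusted p = 0.0424 and 0.0481). None of the 10 was called without pool 3, without pool 6 or without both. Without both, Ppp2r5c, Egln1, Inpp5a and Fhl1 differed by 0.64, 0.38, 0.26 and 0.32 on these probes, and Wfdc1 and Vstm4 by -0.31 and -0.28. Of 779 measured genes on the study's longer list of methylation differences in this comparison, also made from these tissue samples, 13 were called (1.67%), beside 1.00% of all genes.

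Without pools 3 and 6 a different set was called: Cartpt, Baalc, Prl, S100a9 and Ccdc28a, all higher in XX+T in that fit. Cartpt, the CART peptide precursor, was at 8.35, 8.54, 8.67, 8.67 and 8.60 in XX and at 8.56, 9.57, 9.13 and 9.23 in XX+T on the called probe. That probe is not its brightest, and Cartpt belongs to the list of peptide markers above. Pool 3 was within the XX range and the other pools above it. The difference was 0.78 ± 0.12 without pools 3 and 6 (adjusted p = 0.021), 0.74 without pool 3 alone (adjusted p = 0.0231) and 0.55 with all arrays (adjusted p = 0.06).

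Prl, pituitary prolactin, was at 7.41, 8.47, 8.16, 8.10 and 8.83 in XX and at 7.03, 10.49, 9.35 and 7.63 in XX+T, high in pools 4 and 5 and low in 3 and 6 (1.73 ± 0.26 without those, adjusted p = 0.019). S100a9, a calcium-binding protein of neutrophils, was at 7.56 to 8.26 in XX and at 7.11, 8.56, 8.66 and 7.25 in XX+T (0.86, adjusted p = 0.021). Baalc and Ccdc28a differed by 0.58 and 0.50 (adjusted p = 0.019 and 0.0263), Baalc on a probe that is not its brightest. With all arrays Prl, S100a9, Baalc and Ccdc28a were at 0.43, 0.15, 0.37 and -0.12 (adjusted p = 0.551, 0.725, 0.06 and 0.736). Pools 4 and 5 were the 2 arrays behind these calls, and none was called on the day 60 arrays alone.

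**Figure D5:**
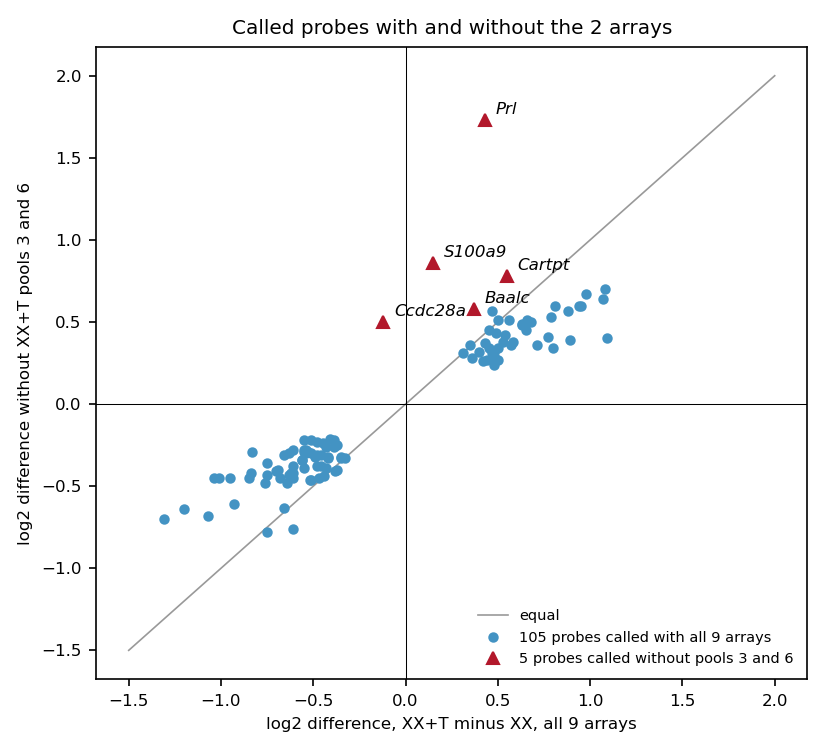
Log2 difference between XX+T and XX without XX+T pools 3 and 6 (y axis) against that with all 9 arrays (x axis); blue points are the 105 probes called with all arrays, red triangles the 5 called without those pools, and the grey line marks equal values. All 105 blue points kept their sign and most lay nearer to 0 on the y axis, and Prl moved from 0.43 to 1.73.

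To ask whether the difference arose after the perinatal period, the day 60 difference was set against that of day 4 in the same region. No probe was called at day 4 (limma, 61 at an unadjusted p under 0.05, where 687 would be found by chance). That fit shared its estimate of the spread with the day 60 arrays. Day 60 XX+T arrays correlated with their own group at a mean r of 0.92 to 0.958, and the day 4 arrays at 0.984 to 0.993. The absence of calls at day 4 therefore cannot show when the difference arose. At day 4 the median difference over the 42 higher and 63 lower probes was 0.03 and 0.00. Taldo1 differed by 0.07 ± 0.07 at day 4, Sgk1 by -0.05 ± 0.13 and Cldn5 by 0.02 ± 0.20. The test of the difference between the ages called no probe (0%, smallest adjusted p 0.271, 1500 probes at an unadjusted p under 0.05). All 105 called probes had an unadjusted p under 0.05 in it. They had been chosen by the day 60 difference that enters this test.

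The day 60 difference was also set against that of the BNST/POA, where no array is shared but the pools may come from the same animals. No probe was called in the test of the difference between regions (smallest adjusted p 1, 354 at an unadjusted p under 0.05). In the BNST/POA the median difference was 0.15 over the 42 higher probes and -0.20 over the 63 lower ones, none of the 105 was called, and 96 had the same sign as in the striatum, beside 73.9% of all probes. Without striatal pools 3 and 6 the sign was shared by 96 of the 105 and by 44.8% of all probes. As all 105 kept their striatal sign without those pools, this count of 96 had to repeat the first and is no separate test. Sgk1 differed by 0.67 ± 0.15 there and by 0.68 in the striatum. Cldn5 differed by -0.72 ± 0.17 and Taldo1 by -0.25 ± 0.08.

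XY and XX striata of the same age were compared with the same XX arrays, so that the values are only set side by side. In XY, 3 probes were called (0.0218%), those of the Y-linked genes Ddx3y, Eif2s3y and Kdm5d. The median of XY minus XX was 0.22 over the 42 higher probes and -0.26 over the 63 lower ones. Taldo1 was at 12.85, 12.75, 12.44 and 12.81 in XY pools 3 to 6, between XX+T and XX for all but pool 5. Cldn5 was at 11.74, 11.81, 11.29 and 11.77, and Sgk1 at 12.99, 12.90, 13.18 and 12.58.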

How the data were processed

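Total RNA of pooled tissue was hybridized to Illumina MouseRef-8 v1.1 arrays. The authors deposited a non-normalized table of bead intensity with a detection p-value for each of 25697 probes, and a normalized log2 table of 13776 probes. Log2 transformation of the intensities, then quantile normalization over all probes, gave the deposited log2 values to within 5e-09. Probes detected (p under 0.05) on at least 20 of 57 arrays were kept, 13731 in all; 114 further per-array columns (bead errors and numbers) were not used. The sources used here do not say which array was on which of the scanners or beadchips, and no such batch was fitted. The study had removed outlier arrays. Probes were named from the platform annotation (12944 with a gene, 13 more from the study's supplementary expression table, 774 unnamed; 9573 genes), with chromosomes and promoters from RefSeq (GRCm38.p6). The probe with the highest mean stood for a gene in lists. A gene was counted as called if any of its probes was.

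Group means of XX and XX+T striatum at days 4 and 60 were fitted with limma 3.58.1 in R 4.3.3 (lmFit, contrasts, eBayes), with Benjamini-Hochberg adjustment over all probes and calls at an adjusted p under 0.05. The fit was tested on simulated data. Named were the 10 largest called differences in each direction without overlap, called members of 28 lists or the 4 members with the largest differences, genes called without pools 3 and 6, the study's 10 methylation and expression genes and sex-linked checks. Some genes that this rule names are not reported here. The members and the lists were chosen with earlier results of these data known. No 2 arrays were identical. The number of arrays limits the precision. Alternatives were other groups in the fit, each array left out, other background correction, normalization and filters, array weights and a replicate block; a fit of day 60 alone without pools 3 and 6 was added after seeing the data.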

Additional observations from a re-analysis of the deposited data

Results flagged for a closer look

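Among 106 sets of values examined (levels of the named genes and array measures in the XX and XX+T groups), 4 held an array far from the rest of its group, where chance flags about 1 in 20. XX pool 1 stood apart in Rac1 (8.20), Pfdn2 (11.83) and S100a9 (8.26), low in the first and second of these and high in the last, and XX pool 3 stood apart in Coro1b (11.09). Eif2s3y, a Y-linked transcript that the groups by label should lack (log2 difference 0.31, adjusted p = 0.316), was at 8.30 on XX+T pool 3, above the 6.86 to 7.10 of the XX arrays.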

How the results depend on the processing

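The count of called probes was 105 with all arrays and ran from 0 to 4008 when single arrays were left out; it was 940 with all 6 striatal groups in the fit, 35 after normexp background correction (22 higher, 13 lower), 11 after median centring (1 higher, 10 lower), 86 without the detection filter and 108 in the authors' table. It was 0 on day 60 arrays alone, with array weights (smallest adjusted p 0.222) and on day 60 arrays alone without XX+T pools 3 and 6, and 5 without those pools with day 4 included. Of the 45 named genes called in the comparison, none changed sign in any of these fits. Ccdc28a, -0.12 with all arrays, was at -0.34 to 0.15 with single arrays left out, at 0.50 without pools 3 and 6 (also on day 60 arrays alone), 0.07 after median centring, 0.25 with array weights and 0.04 with the replicate block. Prl ran from -0.19 to 0.97 and S100a9 from -0.11 to 0.41 with single arrays left out. The causes were not tested. The test of treatment by age gave 0 calls, and 0 to 363 with single arrays left out (363 without XX+T pool 4); median centring moved its median over all probes from 0.00399 to 0.122. The test of treatment by region gave 0 calls in every fit run.

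Replicate numbers 3, 4 and 5 occur in both groups. Same-numbered arrays deviated from their group means with correlations of 0.285, -0.276 and 0.095, and none correlated best with its own number. Such single pairs cannot tell whether arrays of the same number shared a beadchip or another batch. With the number as a replicate block 0 probes were called (smallest adjusted p 0.694), and treatment by age and by region gave 0.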

Other observations

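Transcripts of pituitary hormones and of neutrophils, named after their values were seen, varied over the arrays of both groups. Gh, growth hormone, was at 8.0, 9.22, 9.13, 8.72 and 9.83 in XX pools 1 to 5 and at 6.89, 10.62, 10.03 and 7.98 in XX+T pools 3 to 6, with Prl and Gh both highest in XX+T pool 4. S100a8, the partner of S100a9 in neutrophils, was at 8.90 to 10.13 in XX and at 7.53, 10.06, 10.77 and 7.73 in XX+T. In XY it was at 9.46, 11.71, 9.82 and 11.13. Neither Gh (adjusted p = 0.916) nor S100a8 (adjusted p = 0.595) differed past the threshold with all arrays.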
